A study of Mus musculus with 35 samples.

Results

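The 41 genes described here encode the machinery that builds an autophagosome, loads it and brings it to the lysosome. They were taken as a list of gene symbols, found by the symbol column of a deposited count table and joined by Ensembl identifier to all 35 libraries, which made 41 of the 31053 genes counted. All 41 were found once, and all 41 passed the filter on low counts in each of the 3 crosses. By role they fall into an initiation complex (4 genes), a phosphatidylinositol 3-kinase complex (6), proteins that bind its product or move lipid to the growing membrane (7), enzymes of the conjugation system (10), the ATG8 proteins that are conjugated (5), cargo receptors (5) and proteins of tethering and fusion (4).

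Kidneys of C57BL/6 mice were taken at postnatal day 2 and profiled with QuantSeq, in which a read marks the 3′ end of a transcript. Flcn was deleted with Ksp-cre, a Cre under the cadherin 16 promoter that acts in the thick ascending limb, the distal tubule and the collecting duct. Each library from a mouse with the deletion thus mixes cells with and without it. In the Flcn cross, 5 libraries labelled Flcn KO (Flcn flox/flox; Ksp-cre+) were compared with 5 controls (Flcn flox/flox, per the paper). For the Tfeb cross (Flcn/Tfeb in the plots) there were 4 libraries labelled Flcn/Tfeb DKO, with both Flcn and Tfeb flox/flox alleles and Ksp-cre+, and 3 controls. For the Tfe3 cross (Flcn/Tfe3 in the plots) there were 10 libraries labelled Flcn/Tfe3 DKO, Flcn flox/flox and Ksp-cre+ on a Tfe3-/- background (a germline null), and 8 controls. The labels give the controls of the last 2 crosses only as controls. By their labels all mice with a deletion thus lack Flcn in the same segments and differ in whether Tfeb or Tfe3 is also lost. The first 2 crosses form set A, and the third was deposited in 2 parts, set B with 6 DKO libraries and 3 controls and set C with 4 DKO libraries and 5 controls. Fits of the Tfe3 cross hold the set as a term.

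In autophagy a membrane cup forms, takes up cytoplasm or a marked cargo, closes into an autophagosome and fuses with the lysosome. TFEB and TFE3 are transcription factors that enter the nucleus when they are not phosphorylated by mTORC1, and they drive lysosomal and autophagy genes through promoter elements that hold an E-box. FLCN, the product of the Birt-Hogg-Dubé syndrome gene, takes part in the phosphorylation of TFEB and TFE3, and kidney cells without it hold both factors in the nucleus.

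The libraries held 1652649 to 4239356 reads on genes, so that a count of 0 allows a level of up to 0.708 to 1.82 CPM of the library's total. Gene values below are CPM on library sizes adjusted by TMM factors within a cross, unless said to be of library totals. The 3′ counts do not show the deletions clearly. Mean Flcn was 14.1 CPM in controls and 15.3 in libraries labelled Flcn KO, and mean Tfe3 was 19.6 and 19.0 in the Tfe3 cross. Mean Tfeb was 11.5 and 7.10 in the Tfeb cross, a log2 fold change of -0.73 ± 0.38 (SE). Its controls were at 6.66 to 18.8 CPM and its DKO libraries at 6.19 to 7.55 CPM. None of these changes was called, and in the Tfeb cross no gene of any kind was. Reads at the 3′ end can lie outside the deleted part, and the libraries mix cells with and without the Ksp-cre deletions, so groups are named by their labels. The third Flcn/Tfeb control stood apart. Its correlation with the other controls of its group was 0.875, the lowest of all libraries (0.935 to 0.982 in the rest), and 4.47% of its counts were mitochondrial, against 9.16% to 11.9% in the other libraries of that cross. Control replicates 4 and 5 of the Flcn cross were at 4.88% and 4.93%, against 7.33% to 11.1% in the rest of that cross. Log2 fold changes of the members given by library are followed by their SE and, in square brackets, by the lowest and highest value over fits that leave out 1 library each, and in the Tfeb cross also by the value without the third control.

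No autophagy machinery gene was called in any cross by edgeR's quasi-likelihood test at a Benjamini-Hochberg adjusted p under 0.05. In the Flcn cross 0 of 41 were called, against 0.52% of the 11932 genes tested, and in the Tfeb cross 0 of 41, where 0% of 12469 genes were called. Of the 41, 0 were called in the Tfe3 cross, against 0.385% of 12456 genes. DESeq2 called 1 member in the Flcn cross, 0 in the Tfeb cross and 1 in the Tfe3 cross, and it was Gabarapl1 both times, against 0.947%, 0% and 0.771% of all genes with an adjusted p from DESeq2. In each cross the counts stayed at 0 when any 1 library was left out.

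In the Flcn cross 23 of 41 log2 fold changes were above 0, against 48.5% of all genes tested. The median was 0.058 (-0.0074 over all genes tested), and 23 of 41 lay within 1 SE of 0. In the Tfeb cross 20 were above 0, against 47.9% of all genes. The median was -0.00085 (-0.017 over all genes), and 29 lay within 1 SE of 0. In the Tfe3 cross 31 were above 0, against 51.9% of all genes. The median was 0.093 (0.0090 over all genes), and 27 lay within 1 SE of 0. Fitted apart, the 2 sets of that cross gave the same sign for 16 of 41 members (39%), against 35.6% of all genes. The median SE of a member was 0.16, 0.24 and 0.15, so the Tfeb cross measured them least precisely. That cross has the fewest libraries and also the control that stood apart, and the part of each in the SE was not tested.

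**Figure D1:**
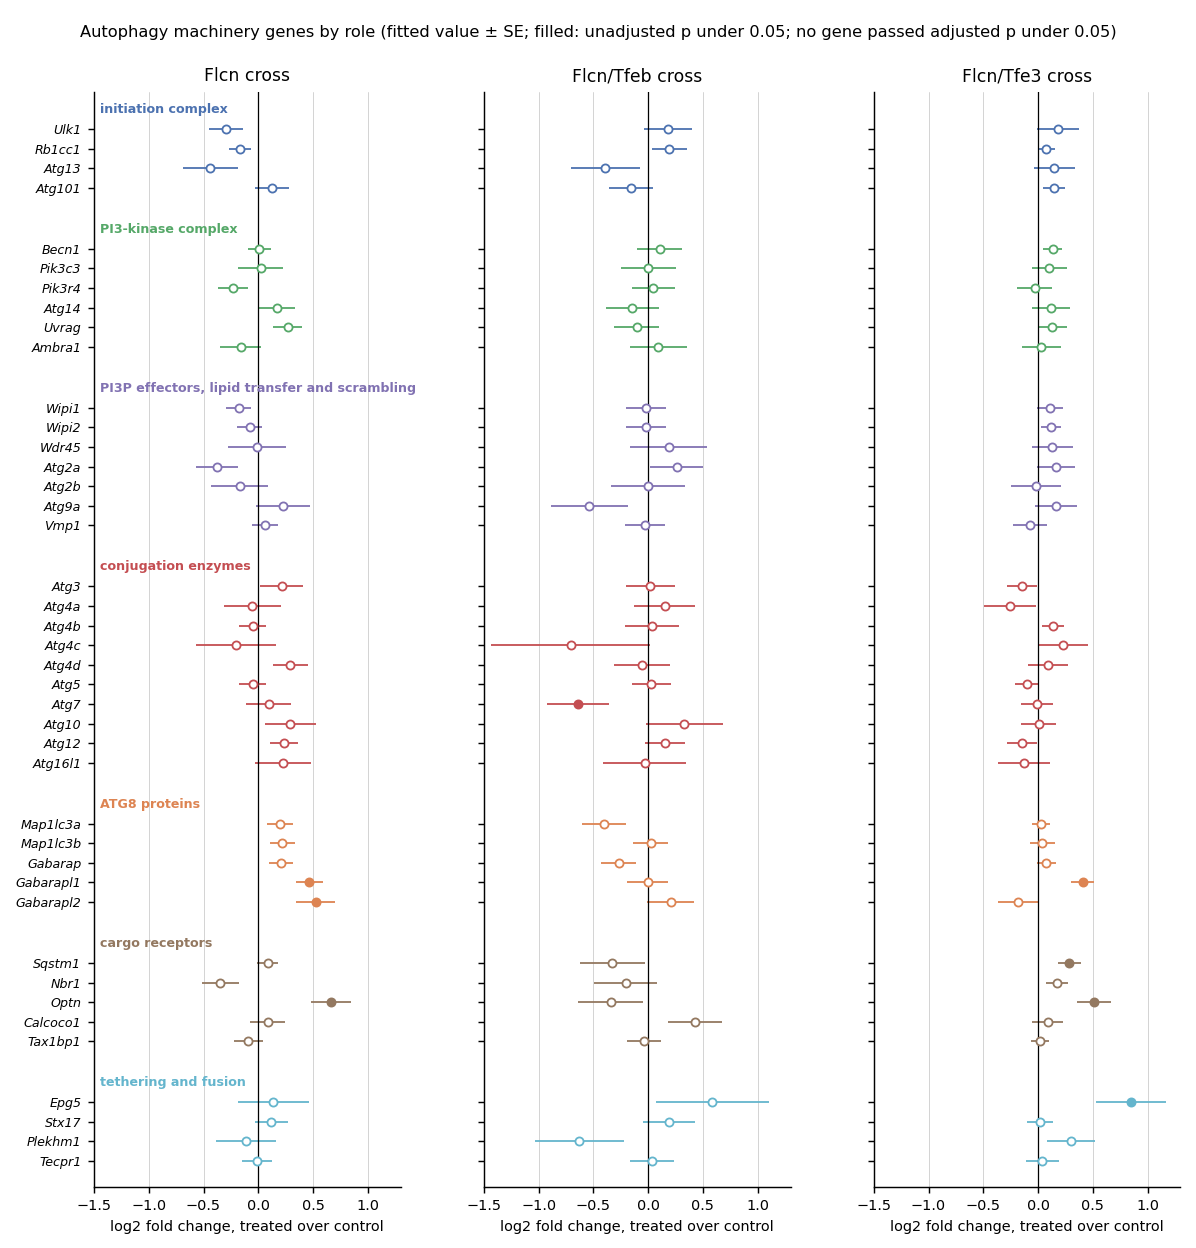
Fitted log2 fold change of each of the 41 genes (points, with SE as bars) in the 3 crosses, grouped by role, where filled points have an unadjusted p under 0.05. Filled points are 3 in the Flcn cross, 1 in the Tfeb cross and 4 in the Tfe3 cross, and none has an adjusted p under 0.05.

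At an unadjusted p under 0.05, 3 members were higher in the Flcn cross (Gabarapl1, Gabarapl2 and Optn), against 5.25% of all genes, and 0 were lower, against 3.81%. In the Tfeb cross 0 were higher, against 1.86%, and 1 was lower (Atg7), against 3.21%. In the Tfe3 cross 4 were higher (Gabarapl1, Optn, Sqstm1 and Epg5), against 3.68%, and 0 were lower, against 3.48%. Counting instead the members whose groups did not overlap, 2 had every Flcn KO library above every control (1.67% of all genes did) and 0 had every one below (0.712%). In the Tfeb cross 0 lay wholly above (2.71% of all genes) and 1 wholly below (2.94%), and over both sets of the Tfe3 cross there were 0 above (0.12%) and 0 below (0.00803%).

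The initiation complex is where nutrient signals meet autophagy. Ulk1, the kinase that starts autophagosome formation, was at 48.2, 36.5, 36.1, 60.1 and 48.9 CPM in the controls of the Flcn cross and at 35.2, 32.4, 44.3, 33.1 and 43.5 CPM in the libraries labelled Flcn KO, a log2 fold change of -0.29 ± 0.16 [-0.37 to -0.17] (SE; adjusted p = 0.61). Rb1cc1, the scaffold of the complex, was at 123, 125, 129, 125 and 144 CPM in those controls and at 119, 116, 115, 104 and 123 CPM in the Flcn KO libraries (-0.16 ± 0.10 [-0.19 to -0.12]; adjusted p = 0.65). The groups overlapped for both genes, with 3 of 5 Flcn KO libraries below the lowest control for Ulk1 and 4 of 5 for Rb1cc1. Atg13, the subunit that links the kinase to its partners, had the lowest fitted value of all members in the Flcn cross (-0.44 ± 0.25; adjusted p = 0.62), and Atg101, which stabilises Atg13, had the only one above 0 among the 4 initiation genes (0.12 ± 0.16).

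Ulk1 was at 28.04, 24.4 and 37.6 CPM in Tfeb cross controls and 27.9, 34.7, 40.1 and 34.6 CPM in DKO libraries (0.18 ± 0.22 [0.060 to 0.39], or 0.39 without the third control), and Rb1cc1 at 93.1, 107 and 85.4 CPM and 102, 111, 120.4 and 98.9 CPM (0.19 ± 0.16 [0.12 to 0.29], or 0.12 without the third control). Both pairs of groups overlapped. Ranges over the Tfe3 cross pool its 2 sets, whose levels differ and which hold unequal numbers of DKO and control libraries, so medians are given for each set and the fitted value holds the set as a term. In the Tfe3 cross all 4 initiation genes had values above 0, from 0.076 ± 0.080 [0.038 to 0.13] for Rb1cc1 to 0.18 ± 0.19 [0.032 to 0.28] for Ulk1, none past the threshold. Ulk1 ranged there over 27.7 to 56.999 CPM (medians 42.9 in set B and 48.3 in set C) in controls and 21.96 to 93.5 CPM (medians 34.04 in set B and 56.5 in set C) in DKO libraries, and Rb1cc1 over 92.4 to 146 CPM (medians 95.8 in set B and 142 in set C) and 99.1 to 151 CPM (medians 111 in set B and 146 in set C). The DKO libraries thus held both the lowest and the highest Ulk1 value of that cross.

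The lipid kinase complex makes the phosphatidylinositol 3-phosphate that marks the site of the forming cup. Becn1, its regulatory core, was at 86.3, 91.5, 80.3, 90.8 and 87.6 CPM in the controls of the Flcn cross and at 93.5, 88.6, 90.4, 72.6 and 93.2 CPM in the Flcn KO libraries (0.0089 ± 0.10 [-0.018 to 0.065]; adjusted p = 0.99). The 2 means differed by less than 1 CPM, at 87.3 ± 4.49 CPM (SD, n = 5) and 87.7 ± 8.65 CPM (SD, n = 5). Uvrag, which replaces Atg14 in the form of the complex that serves endosomes and fusion, was at 28.5, 28.7, 25.3, 25.7 and 23.98 CPM in controls and 27.9, 30.7, 33.1, 33.8 and 33.1 CPM in Flcn KO libraries (0.27 ± 0.13 [0.23 to 0.31]; adjusted p = 0.57). Of its 5 Flcn KO values, 4 lay above every control.

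Becn1 was at 88.6, 81.6 and 52.5 CPM in Tfeb cross controls and 93.7, 75.5, 70.9 and 76.99 CPM in DKO libraries (0.11 ± 0.21 [-0.098 to 0.25], or -0.098 without the third control), the lowest being the third control. Uvrag was at 26.9, 26.1 and 36.2 CPM and 26.4, 29.7, 29.7 and 26.03 CPM (-0.10 ± 0.20 [-0.18 to 0.075], or 0.075 without the third control), the highest being the same control. Becn1 ranged over 73.8 to 107 CPM (medians 93.6 in set B and 76.7 in set C) in Tfe3 cross controls and 74.5 to 109 CPM (medians 101 in set B and 87.6 in set C) in DKO libraries (0.13 ± 0.085 [0.076 to 0.18]), and Uvrag over 17.4 to 31.6 CPM (medians 28.2 in set B and 26.5 in set C) and 20.4 to 37.1 CPM (medians 30.8 in set B and 28.8 in set C) (0.13 ± 0.13 [0.048 to 0.18]). The other members of this complex are the catalytic subunit Pik3c3, its regulatory subunit Pik3r4, the autophagy-specific subunit Atg14 and the Beclin 1-binding protein Ambra1, and their fitted values in the 3 crosses lay between -0.23 and 0.17. None of the 6 genes reached an unadjusted p of 0.05 in any cross.

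Proteins that bind phosphatidylinositol 3-phosphate (Wipi1, Wipi2 and Wdr45), bridge membranes to pass lipid (Atg2a and Atg2b) or scramble lipid between leaflets (Atg9a and Vmp1) come next in the pathway. Wipi1 was at 81.5, 85.04, 78.7, 83.1 and 95.9 CPM in controls of the Flcn cross and 58.7, 74.4, 80.4, 80.3 and 81.4 CPM in Flcn KO libraries (-0.18 ± 0.11 [-0.21 to -0.10]; adjusted p = 0.66). Vmp1 was at 139, 158, 149, 119 and 109.5 CPM and 152, 136, 150.3, 137 and 125 CPM (0.058 ± 0.12 [-0.0091 to 0.12], or -0.087 without control replicates 4 and 5), and Atg9a at 9.65, 10.6, 14.5, 13.5 and 15.99 CPM and 25.9, 13.3, 11.2, 15.9 and 11.2 CPM (0.22 ± 0.25 [-0.030 to 0.33]). The first Flcn KO library held the lowest Wipi1 and the highest Atg9a value of the cross. Of the 7 genes, 2 had fitted values above 0 in that cross, and the lowest was that of Atg2a (-0.37 ± 0.19; adjusted p = 0.58).

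Wipi1 was at 55.5, 57.7 and 80.2 CPM in Tfeb cross controls and 61.6, 58.8, 69.8 and 65.1 CPM in DKO libraries (-0.022 ± 0.18 [-0.12 to 0.18], or 0.18 without the third control). Vmp1 was at 177, 135 and 118 CPM and 154, 119.5, 136 and 152 CPM (-0.028 ± 0.18 [-0.15 to 0.15], or -0.15 without the third control), and Atg9a at 11.2, 11.7 and 27.6 CPM and 11.3, 9.91, 11.2 and 15.2 CPM (-0.54 ± 0.35 [-0.75 to 0.075], or 0.075 without the third control). The third control held the highest Wipi1 and Atg9a values. Wipi1 ranged over 50.5 to 102 CPM (medians 90.2 in set B and 68.98 in set C) in Tfe3 cross controls and 71.2 to 105 CPM (medians 78.6 in set B and 88.8 in set C) in DKO libraries (0.11 ± 0.12 [0.045 to 0.18]), and Vmp1 over 105 to 213 CPM (medians 116 in set B and 179 in set C) and 101 to 197 CPM (medians 153 in set B and 126 in set C) (-0.072 ± 0.16 [-0.18 to 0.0053]). Atg9a ranged over 5.76 to 15.5 CPM (medians 14.9 in set B and 12.2 in set C) in controls and 8.80 to 19.2 CPM (medians 16.7 in set B and 12.5 in set C) in DKO libraries (0.16 ± 0.19 [0.074 to 0.23]).

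Conjugation enzymes attach the ATG8 proteins to lipid in a cascade that resembles ubiquitination. Atg7, the activating enzyme at its head, was at 15.9, 11.1, 23.7, 23.2 and 25.2 CPM in the controls of the Flcn cross and 17.1, 21.7, 23.4, 22.9 and 21.9 CPM in Flcn KO libraries (0.095 ± 0.20 [-0.048 to 0.20]). It was at 12.9, 22.8 and 29.9 CPM in Tfeb cross controls and 15.1, 14.2, 14.1 and 13.4 CPM in the DKO libraries there, a log2 fold change of -0.64 ± 0.28 [-0.90 to -0.33], or -0.33 without the third control (adjusted p = 0.80; exact permutation p = 0.14, two-sided, 3 against 4, where the smallest p possible is 0.029). The 4 DKO values lie inside the range of the controls, whose highest value is again in the third library, and over all alternatives the adjusted p ran from 0.39 to 0.97. The ends of the range in brackets are the fits without the first and the third control. Atg7 ranged over 12.2 to 29.6 CPM (medians 24.9 in set B and 18.2 in set C) in Tfe3 cross controls and 15.99 to 34.5 CPM (medians 24.3 in set B and 17.3 in set C) in DKO libraries (-0.0083 ± 0.14 [-0.061 to 0.033]).

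Atg5 and Atg16l1 belong to the complex that directs the last step of conjugation to the membrane. Atg5 was at 52.6, 67.5, 49.6, 57.1 and 59.8 CPM in the controls of the Flcn cross and 44.04, 58.2, 52.8, 59.9 and 61.3 CPM in Flcn KO libraries (-0.053 ± 0.13 [-0.097 to 0.016]), and at 54.95, 59.4 and 53.6 CPM and 65.7, 52.01, 47.02 and 63.2 CPM in the Tfeb cross (0.029 ± 0.18 [-0.042 to 0.12], or 0.0016 without the third control). Over the Tfe3 cross it ranged over 43.4 to 79.9 CPM (medians 69.2 in set B and 62.4 in set C) in controls and 43.1 to 92.4 CPM (medians 75.99 in set B and 48.4 in set C) in DKO libraries (-0.10 ± 0.11 [-0.15 to -0.058]). Its groups overlapped in each of the 3 crosses.

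Atg16l1 spread widely among controls. It was at 17.8, 30.04, 21.01, 11.5 and 9.77 CPM in the controls of the Flcn cross and 19.6, 19.4, 23.1, 22.3 and 18.1 CPM in Flcn KO libraries (0.23 ± 0.25 [0.056 to 0.49], or -0.18 without control replicates 4 and 5), and at 37.6, 26.1 and 9.40 CPM and 20.02, 25.4, 24.6 and 22.7 CPM in the Tfeb cross (-0.031 ± 0.38 [-0.46 to 0.44], or -0.46 without the third control). The 2 lowest values of the Flcn cross were in control replicates 4 and 5 and the lowest of the Tfeb cross in the third control there, the 3 libraries of set A with the lowest mitochondrial share. It ranged over 6.51 to 30.97 CPM (medians 8.63 in set B and 21.9 in set C) in Tfe3 cross controls and 8.32 to 17.8 CPM (medians 11.5 in set B and 12.8 in set C) in DKO libraries (-0.13 ± 0.23 [-0.26 to -0.0091]). The remaining conjugation genes are the transfer enzymes Atg3 and Atg10, the ubiquitin-like Atg12 and the proteases Atg4a, Atg4b, Atg4c and Atg4d, which trim ATG8 proteins and take them off membranes again. Their fitted values ran from -0.20 (Atg4c) to 0.29 (Atg10) in the Flcn cross, from -0.71 (Atg4c) to 0.33 (Atg10) in the Tfeb cross and from -0.26 (Atg4a) to 0.23 (Atg4c) in the Tfe3 cross, with none at an unadjusted p under 0.05. Atg4c was listed at 0 in 1 control of the Tfeb cross and had means under 10 CPM in every group.

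Because TFEB and TFE3 bind E-boxes, the RefSeq promoter windows of the members (GRCm38.p6, 250 bases before to 50 after each annotated RefSeq start, of which a gene can have several) were searched for CACGTG, which reads the same on both strands, and for the longer TCACGTG on either strand, which contains it. Windows were held for 34 of the 41 genes. CACGTG was found in 4 of these 34 genes (Atg3, Atg5, Atg7 and Atg14), 11.8%, against 8.09% of 27025 genes with a window, and TCACGTG in 3 (Atg3, Atg7 and Atg14), 8.82% against 4.29%. The stretches around each match follow, on the gene's strand, with CACGTG in capitals.
Atg14, chr14:47568418-47568447, strand -: aaaacaaaatccCACGTGactggccctgag
Atg3, chr16:45158723-45158752, strand +: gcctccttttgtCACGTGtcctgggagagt
Atg3, chr16:45158746-45158775, strand +: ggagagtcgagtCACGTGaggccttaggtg
Atg5, chr10:44268313-44268342, strand +: cggagcgcttgcCACGTGgtcttggtgacg
Atg7, chr6:114670952-114670981, strand +: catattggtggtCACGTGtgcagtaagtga
The match in Atg14 spans the start of its window's transcript and the others lie before theirs. The matches in Atg7 and Atg14 lie within the genes' annotated spans, at a start inside the gene, and those in Atg3 and Atg5 lie before the span. The 4 genes with a match had log2 fold changes in the Flcn cross of 0.21 ± 0.20 (Atg3), -0.053 ± 0.13 [-0.097 to 0.016] (Atg5), 0.095 ± 0.20 [-0.048 to 0.20] (Atg7) and 0.17 ± 0.17 (Atg14), with unadjusted p from 0.29 to 0.68. A match describes the letters of these windows only and is not a measured binding site.

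The 5 ATG8 genes encode the small proteins that are joined to the membrane lipid and recruit cargo receptors, Map1lc3a and Map1lc3b for the LC3 branch and Gabarap, Gabarapl1 and Gabarapl2 for the GABARAP branch. Of these 5, 2 had fitted values above 0 in the Tfeb cross (median -0.0042) and 4 in the Tfe3 cross (median 0.041). Of all genes tested, 47.9% and 51.9% were above 0 there. In the Flcn cross all 5 ATG8 genes had values above 0, with a median of 0.22, against 48.5% of all genes. Gabarapl1 was at 190.04, 137, 198, 185 and 202 CPM in controls and 222, 288, 255, 238 and 256 CPM in Flcn KO libraries. Every Flcn KO library lay above every control, and the lowest control, replicate 2, stood well below the others. The log2 fold change was 0.47 ± 0.12 [0.38 to 0.51], a 1.38-fold difference of means 182 ± 26.3 CPM and 252 ± 24.6 CPM (SD, n = 5 each), with adjusted p = 0.13 by edgeR and an exact permutation p of 0.0079 (two-sided, the smallest that 5 against 5 can give). DESeq2 gave 0.46 with adjusted p = 0.030. With the mitochondrial share as a covariate edgeR gave 0.49 (adjusted p = 0.015, in a fit that called 1.23% of all genes), and without control replicates 4 and 5 0.53 (adjusted p = 0.081). Over all alternatives its adjusted p ran from 0.015 to 0.33.

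Gabarapl1 was at 124, 115 and 178 CPM in Tfeb cross controls and 155, 120.1, 138 and 142 CPM in DKO libraries, with means of 139 ± 33.98 CPM (SD, n = 3) and 139 ± 14.5 CPM (SD, n = 4). The log2 fold change was -0.0042 ± 0.19 [-0.12 to 0.22], or 0.22 without the third control, which held the highest value. With the mitochondrial share as a covariate it was 0.38 (adjusted p = 0.65). For the Tfe3 cross, Gabarapl1 was at 237, 176 and 238 CPM in the controls of set B and 245 to 292 CPM (median 287) in its 6 DKO libraries, every one above every control. In set C it was at 112, 109, 178, 139.5 and 157 CPM in controls and 197, 186, 217 and 164 CPM in DKO libraries, 3 of 4 above every control. The log2 fold change over both sets was 0.41 ± 0.10 [0.35 to 0.45] (adjusted p = 0.12 by edgeR; permutation p = 0.00038, exact, two-sided, within sets). The 2 sets gave close values, 0.37 ± 0.13 and 0.41 ± 0.15, and DESeq2 gave 0.39 with adjusted p = 0.024. The likelihood ratio test gave 0.41 (adjusted p = 0.045) and called 0.706% of all genes. Over all alternatives the adjusted p ran from 0.024 to 0.9999.

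The gene lies on chromosome 6 at 129533160-129542346, plus strand (GRCm38). Its RefSeq promoter holds no CACGTG, and the 250 bases before a RefSeq start are shown because this gene had the lowest adjusted p of the members in the Flcn/Tfe3 and Flcn crosses.
Gabarapl1, chr6:129532942-129533191, strand +: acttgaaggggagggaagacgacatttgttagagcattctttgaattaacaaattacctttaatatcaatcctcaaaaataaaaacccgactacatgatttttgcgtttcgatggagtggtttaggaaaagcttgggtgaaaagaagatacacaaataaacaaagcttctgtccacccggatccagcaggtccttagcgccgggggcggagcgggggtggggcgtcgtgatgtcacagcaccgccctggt
Of these bases 46.8% are G or C, against a median of 52.4% over all windows.

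Gabarapl2 was at 52.1, 39.3, 38.3, 26.2 and 29.6 CPM in the controls of the Flcn cross and 57.3, 44.6, 46.9, 66.9 and 49.1 CPM in Flcn KO libraries (0.52 ± 0.17 [0.41 to 0.67]; adjusted p = 0.33). The 2 lowest controls are replicates 4 and 5, and without both the value was 0.27 (adjusted p = 0.76). It was at 57.2, 46.6 and 35.1 CPM in Tfeb cross controls and 55.5, 61.3, 42.7 and 52.8 CPM in DKO libraries (0.20 ± 0.21 [0.024 to 0.38], or 0.024 without the third control), and in the Tfe3 cross it ranged over 25.1 to 62.7 CPM (medians 38.3 in set B and 49.7 in set C) in controls and 27.6 to 61.003 CPM (medians 44.5 in set B and 29.9 in set C) in DKO libraries (-0.18 ± 0.18 [-0.30 to -0.10]). In the Tfeb cross the lowest value was that of the third control.

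Gabarap was at 157, 150.2, 169, 168 and 174 CPM in the controls of the Flcn cross and 168, 199, 168, 190.5 and 219.6 CPM in Flcn KO libraries (0.21 ± 0.11 [0.15 to 0.25]; adjusted p = 0.59). It was at 164, 152 and 195 CPM in Tfeb cross controls and 137, 150.5, 143 and 135 CPM in the DKO libraries there, so that every DKO library lay below every control (-0.27 ± 0.16 [-0.34 to -0.16], or -0.16 without the third control; adjusted p = 0.80; exact permutation p = 0.029, the smallest that 3 against 4 can give). It is the 1 member whose groups did not overlap in that cross. It ranged over 129.6 to 220.3 CPM (medians 219 in set B and 179 in set C) in Tfe3 cross controls and 153 to 256 CPM (medians 243 in set B and 175 in set C) in DKO libraries (0.077 ± 0.090 [0.039 to 0.11]).

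Map1lc3a was at 93.1, 67.9, 90.5, 85.3 and 87.9 CPM in the controls of the Flcn cross and 84.2, 90.6, 99.3, 96.2 and 117 CPM in Flcn KO libraries (0.20 ± 0.12 [0.12 to 0.25]), and at 99.2, 89.9 and 146 CPM and 82.7, 98.4, 73.4 and 85.9 CPM in the Tfeb cross (-0.40 ± 0.20 [-0.53 to -0.16], or -0.16 without the third control; adjusted p = 0.80). The third control was the highest of that cross. It ranged over 85.6 to 134 CPM (medians 127 in set B and 110.1 in set C) in Tfe3 cross controls and 89.9 to 144 CPM (medians 136 in set B and 101 in set C) in DKO libraries (0.029 ± 0.084 [-0.0044 to 0.058]). Map1lc3b was at 227, 175, 169, 154 and 197 CPM and 211, 215, 224, 198 and 225 CPM in the Flcn cross (0.22 ± 0.12 [0.16 to 0.30]), and at 164, 162 and 148 CPM and 172, 180.2, 139.6 and 149 CPM in the Tfeb cross (0.021 ± 0.16 [-0.034 to 0.085], or -0.024 without the third control). Over the Tfe3 cross it ranged over 142 to 205 CPM (medians 165 in set B and 181 in set C) in controls and 142 to 240.5 CPM (medians 187 in set B and 164 in set C) in DKO libraries (0.041 ± 0.11 [0.0017 to 0.073]). Its groups overlapped in each of the 3 crosses.

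**Figure D2:**
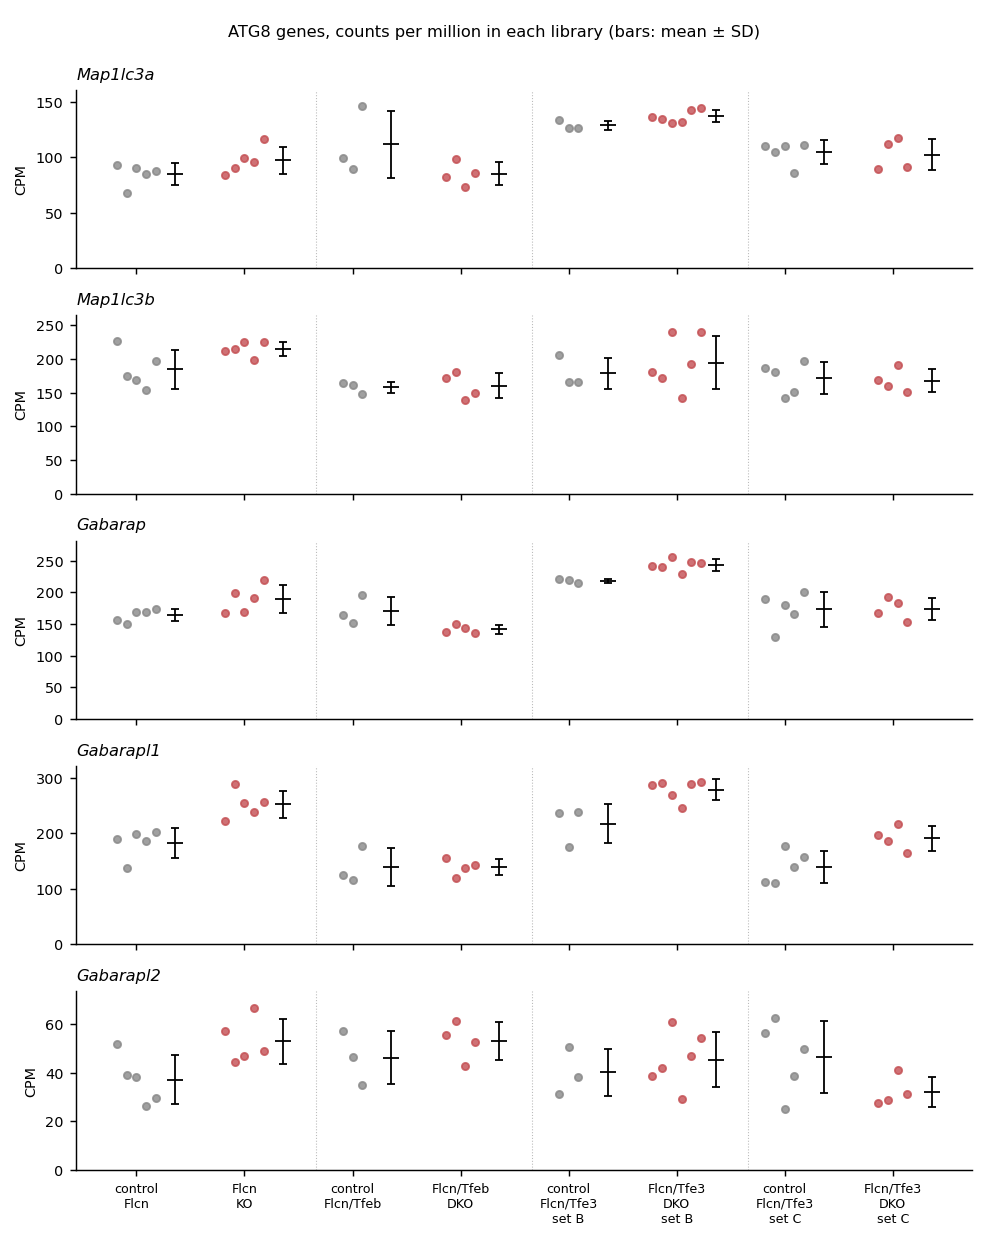
CPM of the 5 ATG8 genes in each of the 35 libraries (grey, controls; red, libraries with a deletion), with mean ± SD beside each group, scaled within each cross. Gabarapl1 is the gene whose Flcn KO points, 222 to 288 CPM, all lie above the control points, 137 to 202 CPM, and whose Flcn/Tfeb groups have the same mean of 139 CPM.

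Cargo receptors bind an ATG8 protein on one side and a marked cargo on the other. Optn, the receptor optineurin, was at 12.1, 12.5, 17.2, 15.7 and 21.02 CPM in the controls of the Flcn cross and 28.9, 22.9, 28.6, 23.6 and 22.2 CPM in Flcn KO libraries. Every Flcn KO library lay above every control, with means of 15.7 ± 3.69 CPM and 25.2 ± 3.26 CPM (SD, n = 5 each). The log2 fold change was 0.66 ± 0.18 [0.58 to 0.80], the largest of the members in that cross (adjusted p = 0.16 by edgeR; exact permutation p = 0.0079). DESeq2 gave 0.66 with adjusted p = 0.098, in a range over all alternatives from 0.056 to 0.40. Optn is on the list of increased transcripts that the study drew from these same libraries, so its direction in the Flcn cross is not independent evidence.

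Optn was at 21.3, 9.99 and 17.4 CPM in Tfeb cross controls and 14.7, 12.4, 13.7 and 10.4 CPM in DKO libraries (-0.34 ± 0.29 [-0.57 to -0.13], or -0.28 without the third control; adjusted p = 0.81), and no DKO library exceeded the control median. The ends of the bracketed range are the fits without the second and the first control. Within the Tfe3 cross Optn was at 11.99, 10.6 and 10.04 CPM in the controls of set B and 11.1 to 20.4 CPM (median 17.98) in its DKO libraries, and at 19.3, 15.8, 18.2, 12.8 and 15.4 CPM in the controls of set C and 14.8, 28.7, 22.004 and 20.8 CPM in its DKO libraries. Of 6 DKO libraries of set B, 5 lay above every control of that set, and of 4 in set C, 3 did. The log2 fold change was 0.51 ± 0.15 [0.43 to 0.59] over both sets (adjusted p = 0.27 by edgeR; permutation p = 0.0045, exact, two-sided, within sets), 0.63 ± 0.22 in set B and 0.37 ± 0.23 in set C. DESeq2 gave 0.49 with adjusted p = 0.16, in a range from 0.14 to 0.9999.

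Optn lies on chromosome 2 at 5020642-5064051, minus strand (GRCm38). Its RefSeq promoter holds no CACGTG either, and the 250 bases before a RefSeq start are shown as those of the member with the largest fitted value in the Flcn cross.
Optn, chr2:5064118-5064367, strand -: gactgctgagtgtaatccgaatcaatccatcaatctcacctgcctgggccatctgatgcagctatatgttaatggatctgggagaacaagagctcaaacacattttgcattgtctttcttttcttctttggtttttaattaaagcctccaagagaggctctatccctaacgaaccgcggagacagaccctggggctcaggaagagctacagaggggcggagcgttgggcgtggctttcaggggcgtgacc

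Sqstm1, the receptor also called p62 that gathers ubiquitinated proteins, was at 164, 159, 162, 168 and 177 CPM in the controls of the Flcn cross and 168, 164, 175, 177 and 195 CPM in Flcn KO libraries (0.085 ± 0.099 [0.044 to 0.11]; adjusted p = 0.82). It was at 90.3, 89.9 and 224 CPM in Tfeb cross controls and 104, 92.9, 111 and 125 CPM in DKO libraries (-0.33 ± 0.30 [-0.54 to 0.27], or 0.27 without the third control). The third control held more than the other 2 together, and the adjusted p without it was 0.94. With the mitochondrial share as a covariate the value was 0.52 (adjusted p = 0.62). Among Tfe3 cross libraries, Sqstm1 was at 239, 184 and 221 CPM in the controls of set B and 207 to 246 CPM (median 231) in its DKO libraries (0.10 ± 0.12). In set C it was at 137, 107, 192, 129 and 127 CPM in controls and 189, 198, 202 and 175 CPM in DKO libraries (0.42 ± 0.15), and only control replicate 6 reached the level of the DKO libraries. Over both sets the value was 0.28 ± 0.11 [0.24 to 0.34] (adjusted p = 0.45).

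Nbr1, a receptor related to Sqstm1, was at 32.3, 29.6, 42.6, 46.9 and 45.3 CPM in the controls of the Flcn cross and 31.3, 31.3, 23.8, 28.03 and 40.2 CPM in Flcn KO libraries (-0.35 ± 0.17 [-0.47 to -0.26]; adjusted p = 0.55), and at 29.2, 19.98 and 47.3 CPM and 35.5, 28.5, 24.2 and 25.3 CPM in the Tfeb cross (-0.21 ± 0.29 [-0.44 to 0.21], or 0.21 without the third control). It ranged over 41.1 to 47.98 CPM (medians 45.9 in set B and 42.2 in set C) in Tfe3 cross controls and 37.3 to 62.4 CPM (medians 42.5 in set B and 59.2 in set C) in DKO libraries (0.17 ± 0.10 [0.13 to 0.21]), so that the controls spread less than the DKO libraries.

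Calcoco1, a receptor for endoplasmic reticulum, was at 71.4, 61.01, 56.6, 74.1 and 90.3 CPM in the controls of the Flcn cross and 50.4, 69.8, 74.4, 80.3 and 101 CPM in Flcn KO libraries (0.084 ± 0.16 [-0.051 to 0.19]), and at 26.4, 49.96 and 49.5 CPM and 62.3, 42.1, 64.4 and 57.3 CPM in the Tfeb cross (0.43 ± 0.25 [0.19 to 0.58], or 0.58 without the third control). It ranged over 27.2 to 90.3 CPM (medians 75.7 in set B and 47.9 in set C) in controls and 45.8 to 84.3 CPM (medians 76.7 in set B and 52.9 in set C) in DKO libraries of the Tfe3 cross (0.089 ± 0.14 [0.0053 to 0.17]). Tax1bp1, a receptor that shares ubiquitinated cargo with Sqstm1 and Nbr1, was at 212, 227, 222, 295 and 298 CPM and 198, 266, 250.01, 206 and 256 CPM in the Flcn cross (-0.093 ± 0.13 [-0.15 to -0.023], or 0.10 without control replicates 4 and 5), and at 200.2, 215 and 211 CPM and 223, 214, 176 and 198 CPM in the Tfeb cross (-0.041 ± 0.15 [-0.084 to 0.025], or -0.032 without the third control). It ranged over 231 to 312 CPM (medians 307 in set B and 275 in set C) in Tfe3 cross controls and 259.999 to 309.9 CPM (medians 285 in set B and 282 in set C) in DKO libraries (0.019 ± 0.079 [-0.012 to 0.036]), the smallest change of the receptors there. The groups of both genes overlapped in each of the 3 crosses.

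**Figure D3:**
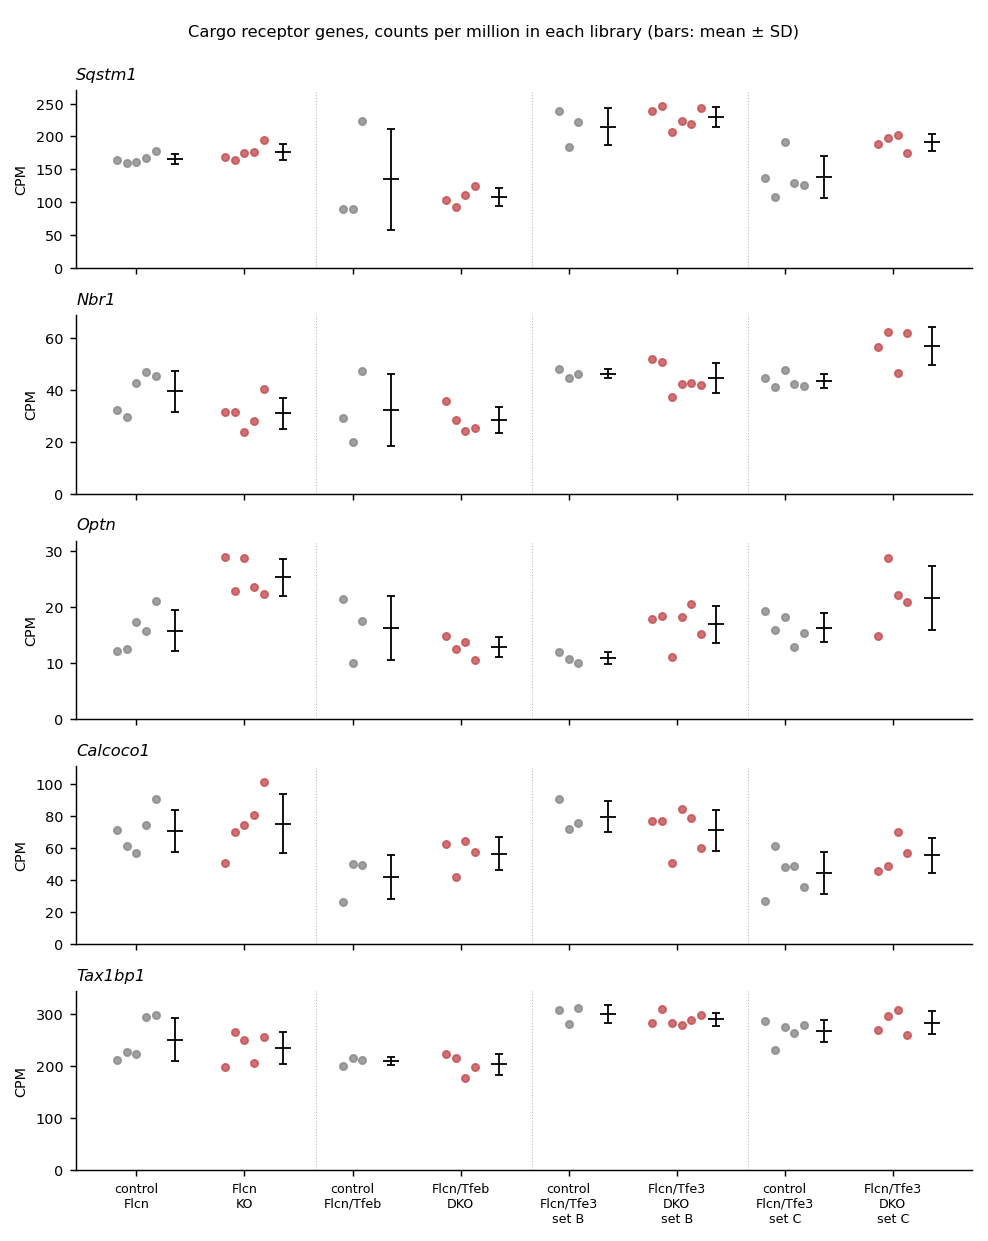
CPM of the 5 cargo receptor genes in each of the 35 libraries (grey, controls; red, libraries with a deletion), with mean ± SD beside each group, scaled within each cross. Optn is the receptor whose Flcn KO points all lie above the controls, and the single high Sqstm1 point among the Flcn/Tfeb controls, at 224 CPM, is the library that stood apart.

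Tethering and fusion genes act last. Stx17, the SNARE on the closed autophagosome, was at 44.4, 42.98, 33.9, 28.9 and 38.2 CPM in the controls of the Flcn cross and 36.7, 34.5, 51.3, 42.7 and 38.5 CPM in Flcn KO libraries (0.12 ± 0.15 [0.017 to 0.18]), and at 50.5, 42.2 and 25.2 CPM and 45.7, 43.3, 47.02 and 40.5 CPM in the Tfeb cross (0.19 ± 0.24 [-0.066 to 0.41], or -0.066 without the third control). It ranged over 25.9 to 43.2 CPM (medians 28.4 in set B and 38.8 in set C) in Tfe3 cross controls and 26.8 to 39.7 CPM (medians 31.5 in set B and 32.3 in set C) in DKO libraries (0.021 ± 0.12 [-0.034 to 0.058]). Tecpr1, a tether on lysosomes, had values between -0.015 and 0.040 in the 3 crosses.

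Plekhm1, an adaptor that links Rab7 to ATG8 proteins, was at 10.6, 14.3, 8.62, 15.7 and 13.3 CPM in the controls of the Flcn cross and 7.83, 6.08, 17.5, 13.4 and 14.5 CPM in Flcn KO libraries (-0.11 ± 0.27 [-0.30 to 0.072], or 0.071 without control replicates 4 and 5), and at 7.85, 4.996 and 15.8 CPM and 7.18, 6.81, 5.06 and 6.69 CPM in the Tfeb cross (-0.63 ± 0.41 [-0.90 to -0.00037], or -0.00037 without the third control). Plekhm1 ranged over 5.26 to 15.7 CPM (medians 14.9 in set B and 8.91 in set C) in Tfe3 cross controls and 6.75 to 17.6 CPM (medians 11.8 in set B and 16.3 in set C) in DKO libraries (0.30 ± 0.22 [0.20 to 0.43]).

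Epg5, a tether of autophagosomes to late endosomes and lysosomes, had the lowest control mean of the members in each cross. It was at 5.79, 3.70, 2.69, 4.24 and 3.55 CPM in the controls of the Flcn cross and 1.96, 5.21, 3.72, 5.10 and 5.62 CPM in Flcn KO libraries (0.14 ± 0.32 [0.014 to 0.30]), and at 1.68, 6.66 and 3.32 CPM and 7.93, 7.43, 3.98 and 4.09 CPM in the Tfeb cross (0.59 ± 0.51 [0.27 to 1.13], or 0.46 without the third control). Within the Tfe3 cross Epg5 was at 0.979, 1.73 and 0.543 CPM in the controls of set B and 1.53 to 4.56 CPM (median 3.36) in its DKO libraries, and at 2.63, 5.76, 4.36, 5.04 and 4.73 CPM and 2.03, 8.28, 7.54 and 5.73 CPM in set C. The log2 fold change over both sets was 0.85 ± 0.32 [0.69 to 1.04] (adjusted p = 0.47), and the values of the controls of set B rest on 2 to 7 counts each.

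The design also lets the effects of the crosses be compared, each against its own controls. The genotypes of the Tfeb and Tfe3 cross controls are not given. A difference thus cannot be assigned to the added loss of Tfeb or Tfe3. In the difference Flcn/Tfeb less Flcn, 0 of 41 members passed an adjusted p under 0.05 by edgeR, against 0.0153% of 13049 genes, and 7 had an unadjusted p under 0.05, against 5.95%. They were Optn (-1.01 ± 0.32), Atg7 (-0.75 ± 0.35), Map1lc3a (-0.61 ± 0.22), Gabarap (-0.48 ± 0.17) and Gabarapl1 (-0.47 ± 0.21), lower in the Tfeb cross, and Rb1cc1 (0.35 ± 0.17) and Atg2a (0.63 ± 0.30), higher there. Their adjusted p ran from 0.65 (Optn) to 0.82. Without the third Flcn/Tfeb control the differences were -0.94 (Optn), -0.41 (Atg7), -0.35 (Map1lc3a), -0.36 (Gabarap), -0.24 (Gabarapl1), 0.29 (Rb1cc1) and 0.48 (Atg2a).

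In the difference Flcn/Tfe3 less Flcn, 0 of 41 were called, where 0% of 13209 genes were, and 2 had an unadjusted p under 0.05, against 7.4%. These were Nbr1 (0.52 ± 0.19, adjusted p = 0.66) and Gabarapl2 (-0.70 ± 0.29, adjusted p = 0.66). For both, the effect within the Tfe3 cross changed sign between its sets. Nbr1 was at -0.050 ± 0.14 in set B and 0.35 ± 0.14 in set C, and Gabarapl2 at 0.18 ± 0.22 and -0.56 ± 0.22. The difference Flcn/Tfe3 less Flcn was -0.057 ± 0.17 for Gabarapl1 and -0.15 ± 0.24 for Optn. Intervals of 2 SE either way thus reach from -0.39 to 0.27 and from -0.63 to 0.33. In the difference Flcn/Tfe3 less Flcn/Tfeb, 0 of 41 were called, against 0.022% of 13637 genes, and 4 had an unadjusted p under 0.05, against 12.2%, all higher in the Tfe3 cross. They were Optn (0.84 ± 0.30; adjusted p = 0.30), Atg7 (0.62 ± 0.29), Sqstm1 (0.59 ± 0.26) and Map1lc3a (0.42 ± 0.18). Without the third Flcn/Tfeb control these became 0.79 (Optn), 0.32 (Atg7), 0.010 (Sqstm1) and 0.18 (Map1lc3a). DESeq2 called 0 of 41 in each of the 3 differences, against 0.0638%, 0.00757% and 0.0637% of all genes in the order given. These differences share libraries with each other and with the crosses above, and those with the Tfe3 cross also compare tables made separately.

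Within the Tfe3 cross the 2 sets gave different lists. In set B 0 of 41 members were called by edgeR, against 0.0606% of 13191 genes. At an unadjusted p under 0.05, 5 were higher (Gabarapl1, Optn, Epg5, Vmp1 and Atg4d), against 3.83%, and 0 were lower, against 2.73%. In 3 members (Gabarapl1, Gabarap and Atg12) every DKO library of set B lay above every control (1.74% of all genes did), and 0 lay wholly below (1.22%). In set C 0 of 41 were called, against 4.68% of 12169 genes. There 5 were higher (Gabarapl1, Sqstm1, Nbr1, Wipi1 and Plekhm1), against 8.63%, and 5 were lower (Gabarapl2, Vmp1, Atg3, Atg4a and Atg12), against 12.7%. Plekhm1 was the 1 member with every DKO library of set C above every control (3.1% of all genes), and 0 lay wholly below (2.65%).

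Of the 41 members 16 (39%) had the same sign in both sets, against 35.6% of 12123 genes tested in both. Vmp1 was at 105, 138 and 116 CPM in the controls of set B and 122 to 197 CPM (median 153) in its DKO libraries (0.40 ± 0.17). In set C it was at 186, 179, 117, 159 and 213 CPM in controls and 122, 134, 130.5 and 101 CPM in DKO libraries (-0.53 ± 0.16), so the order of the groups turned over. The difference of effects set C less set B was -0.89 ± 0.24 for Vmp1 (adjusted p = 0.060), and 0 of 41 members were called in it, against 1.3% of 12456 genes. This test was added after the values of the 2 sets had been seen. At an unadjusted p under 0.05 there were 9 members, against 22.1% of all genes. They were Wipi1 (0.62 ± 0.21), Nbr1 (0.44 ± 0.19) and Plekhm1 (1.09 ± 0.39) in one direction, and Vmp1, Atg3 (-0.59 ± 0.25), Atg4a (-1.10 ± 0.42), Atg4d (-0.82 ± 0.32), Atg12 (-0.70 ± 0.22) and Gabarapl2 (-0.69 ± 0.33) in the other. For Gabarapl1 the difference was 0.088 ± 0.20 and for Optn -0.22 ± 0.31.

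The sets also differed in read measures that move with the groups. In set C the controls had 3.01% to 7.80% mitochondrial counts and 8.78% to 18.4% of reads off genes, and the DKO libraries 2.72% to 4.27% and 7.92% to 10.5%. In set B the ranges of the mitochondrial share were 2.10% to 2.99% and 1.79% to 3.56%, and reads off genes were not analysed for that set. The part of these measures in the set C values was not tested gene by gene; with the mitochondrial share as a covariate over both sets, Gabarapl1 was at 0.30 (adjusted p = 0.56), Optn at 0.53 and Sqstm1 at 0.17.

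**Figure D4:**
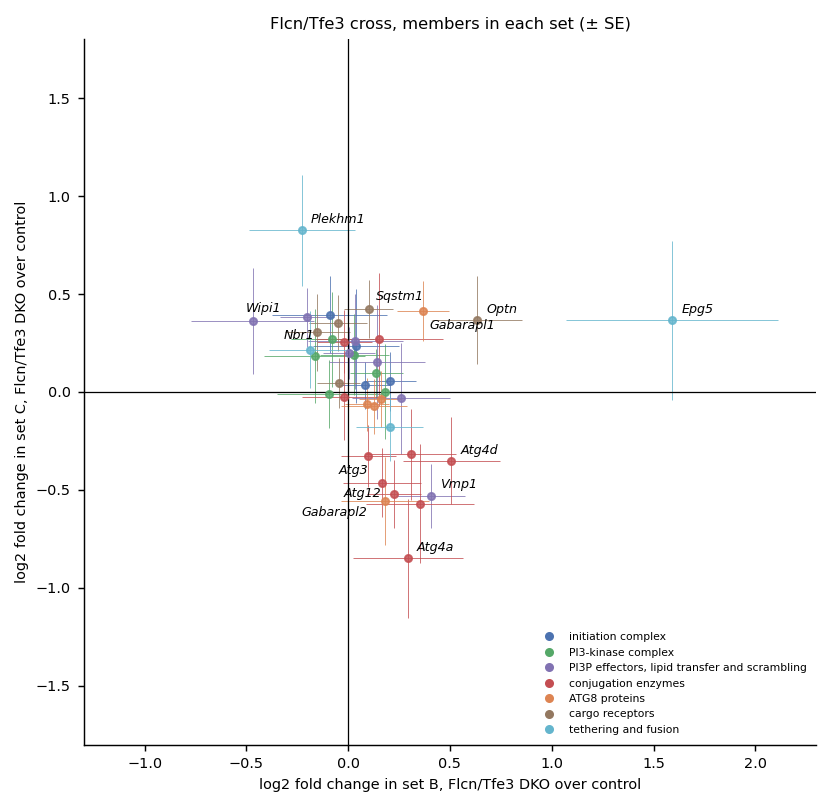
Log2 fold change of each of the 41 genes in set B (horizontal) and in set C (vertical) of the Tfe3 cross, with SE bars and colours by role; named genes have an unadjusted p under 0.05 in at least 1 set. Gabarapl1 and Optn lie in the upper right, and Vmp1, Atg3, Atg4a, Atg4d, Atg12 and Gabarapl2 in the lower right.

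The summed level of the 41 genes was 1852 to 3004 CPM of the library totals, and within sets A and C it was higher in libraries with a lower mitochondrial share. Among the 17 libraries of set A, the 3 with less than 5% mitochondrial counts, all controls, summed to 2709, 2741 and 2780 CPM, and the other 14 to 1936 to 2750.4 CPM with a median of 2219.5. In set C the 4 DKO libraries summed to 2436 to 2623 CPM and the 5 controls to 1852 to 2396 CPM, without overlap. In set B the DKO libraries summed to 2864 to 3004 CPM and the controls to 2634 to 2876 CPM. In the Tfeb cross the DKO libraries summed to 1936 to 2139 CPM and the controls to 1985 and 2036 CPM, and to 2780.3 CPM in the third. Whether the sum would differ between groups at equal mitochondrial share was not tested.

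**Figure D5:**
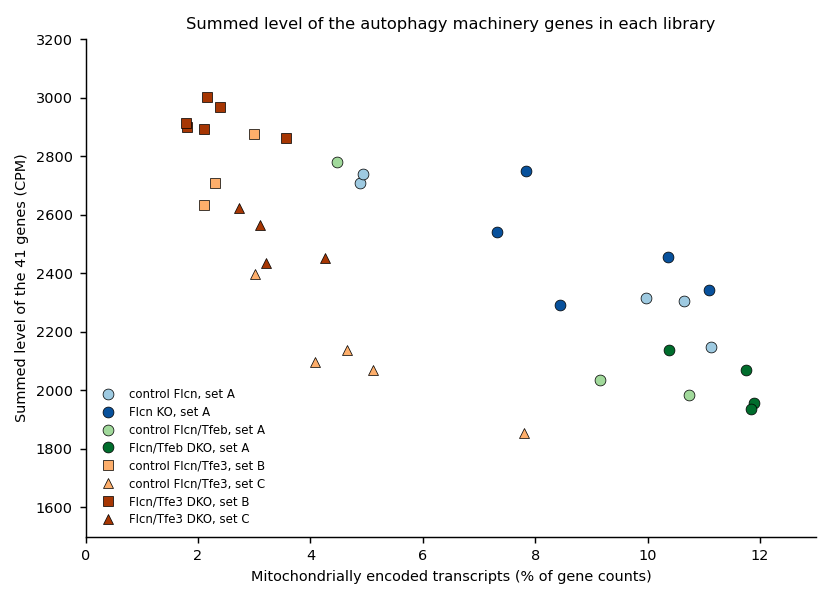
Summed level of the 41 genes in CPM of library totals against the percentage of gene counts from mitochondrially encoded transcripts, 1 point per library, with colour for the group and shape for the set. Within set A and within set C the points fall from upper left to lower right, and the 3 set A controls with less than 5% mitochondrial counts lie at 2709 to 2780 CPM.

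Of 31 further autophagy genes on a second list (other core genes, organelle and ferritin receptors, and the SNARE, Rab7 and HOPS fusion machinery), all 31 were tested in each cross and 0 were called in any of them by edgeR, against the same 0.52%, 0% and 0.385% of all genes. Of these 31, 20 had values above 0 in the Flcn cross, with a median of 0.056, in the Tfeb cross 15 (median -0.0053) and in the Tfe3 cross 19 (median 0.035). Of all genes tested, 48.5%, 47.9% and 51.9% were above 0 in these crosses. At an unadjusted p under 0.05, Vamp8, a SNARE of the lysosomal side, was higher in the Flcn cross (108 ± 8.51 CPM in controls and 146 ± 16.7 CPM in Flcn KO libraries, SD, n = 5 each; 0.43 ± 0.11; adjusted p = 0.11), with every Flcn KO library above every control. This was 1 of 31, against 5.25% of all genes higher at that p and 1.67% with groups apart in that direction. Vamp8 too is on the study's list drawn from these libraries. In the Tfeb cross Atg16l2, a relative of Atg16l1, was higher (0.72 ± 0.27), and Vps18, a HOPS subunit (-0.89 ± 0.37), and Tex264, a receptor for endoplasmic reticulum (-0.62 ± 0.28), were lower, each at adjusted p = 0.80, which makes 1 of 31 higher and 2 lower, against 1.86% and 3.21% of all genes. Without the third control Tex264 was at -0.12, and without the second control Vps18 was at -0.43. Groups did not overlap in that cross for 1 of 31 above (Atg16l2) and 2 below (Vps18 and Vps39), against 2.71% and 2.94% of all genes. Over both sets of the Tfe3 cross 0 lay wholly above and 0 wholly below, against 0.12% and 0.00803%. In the Tfe3 cross Trp53inp2, which binds ATG8 proteins, was higher (0.30 ± 0.13; adjusted p = 0.57), 1 of 31 against 3.68%. In the other 2 crosses Vamp8 was at 0.16 ± 0.17 (Flcn/Tfeb) and -0.10 ± 0.098 (Flcn/Tfe3).

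Kidney libraries hold many cell types, and fewer cells of a type cannot be told apart from less RNA per cell. In the Flcn cross 15 markers of the segments where Ksp-cre acts summed to 2085 to 2402 CPM of library totals in controls and 2295 to 2732 CPM in Flcn KO libraries, with 3 of 15 called higher, against 0.52% of all genes called. On the same scale the 8 proximal tubule markers summed to 2793 to 3410 CPM in controls and 2191 to 2875 CPM in Flcn KO libraries, with 0 called and 7 of 8 fitted values below 0. The first list summed on that scale in the Tfe3 cross to 1633 to 2442 CPM in controls and 2030.1 to 2764 CPM in DKO libraries, with 1 called higher (0.385% of all genes called), and in the Tfeb cross to 1796 to 2885 CPM and 1859 to 1995 CPM, with 0 called (0% of all genes). Cdh16, whose promoter drives the Cre, was at 303 and 315 CPM (means of controls and Flcn KO libraries) in the Flcn cross, at 265 and 201 CPM in the Tfeb cross and at 254 and 257 CPM in the Tfe3 cross. Of the markers of podocytes, endothelium, stroma, nephron progenitors, myeloid cells and red blood cells 0 were called in any cross. At an unadjusted p under 0.05, 3 of 6 stroma, 2 of 6 podocyte, 2 of 4 tested nephron progenitor and 2 of 8 proximal tubule markers were lower in the Flcn cross and 0 higher, and of the 15 segment markers 6 were higher and 2 lower, against 5.25% of all genes higher and 3.81% lower. At that p in the Tfeb cross 2 segment, 1 podocyte and 1 endothelium marker were lower, and 1 nephron progenitor and 1 myeloid marker were higher (3.21% of all genes were lower and 1.86% higher). In the Tfe3 cross all 5 red blood cell genes and 1 segment marker were lower, and 6 segment markers and 1 stroma marker were higher (3.48% of all genes lower and 3.68% higher). No marker list held a gene at 0 in all libraries. The part of these shifts in the values of Gabarapl1, Optn and the other members was not tested.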

How the data were processed

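3′ mRNA libraries of whole kidney from 35 mice at postnatal day 2 were used, and the labels name them as replicates of a genotype. The authors trimmed reads with bbduk, aligned them to mm10 with STAR and used HTSeq-count for counts of each gene; the submitters' processing notes name Trim Galore and STAR. The values used are the deposited raw counts per gene, with tally rows for unassigned reads left out and 0 columns of per-sample values unused. Counts of each cross were filtered (filterByExpr), scaled by TMM factors and tested with edgeR 4.0.16 (R 4.3.3; quasi-likelihood test, two-sided, Benjamini-Hochberg over all genes tested). CPM are on TMM sizes within a cross, are not scaled by gene length and are not compared between crosses. The SE of a log2 fold change was worked out from the test, as its size divided by the square root of the F statistic. It is thus an approximation. Single genes were also given an exact permutation test of mean log2(CPM + 0.5).

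The members and lists were chosen with earlier results of these data known. Per-library values are given for 22 genes chosen by role and for each member with an unadjusted p under 0.05 in any cross. Alternatives were DESeq2 1.42.0, a likelihood ratio test, RLE factors, 2 other filters, the replicate number, Xist or mitochondrial share as terms, 1 fit of all libraries, each set alone, no set term, and each library left out. Leaving out 2 Flcn controls together, leaving out each library in the single differences and in the second gene list, and the test of set C less set B were chosen after seeing the data.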

Additional observations from a re-analysis of the deposited data

Results flagged for a closer look

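Of 205 groups of 4 to 10 libraries examined (1 member in 1 group each), 7 held a library far from the others by Dixon's criterion, which chance gives in about 1 in 20 groups. Each value was the lowest or highest of its own group, the 10 Flcn/Tfe3 DKO libraries of sets B and C being taken as 1 group. Flcn KO libraries held a low Becn1 value, 72.6 CPM in replicate 4 (nearest 88.6), and a low Atg7 value, 17.1 CPM in replicate 1 (nearest 21.7). In the controls of the Flcn cross replicate 1 held a high Pik3r4 value, 43.9 CPM (nearest 35.7), and replicate 2 held a low Atg14 value, 18.0 CPM (nearest 23.7), and a low Gabarapl1 value, 137 CPM (nearest 185). Flcn/Tfe3 DKO replicate 3 held a high Atg3 value, 37.3 CPM (nearest 26.5), and a high Atg10 value, 22.8 CPM (nearest 17.2), and that library is of set B while the nearest values are of set C. Without control replicate 2 the Gabarapl1 log2 fold change of the Flcn cross was 0.38 (adjusted p = 0.25 by edgeR).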

How the results depend on the processing

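Not every alternative was run for the differences. The count of members called was 0 in each cross and each difference under every alternative run for it, except 4. It was 1, Gabarapl1, in the Flcn cross with DESeq2 (0.46, adjusted p = 0.030) and with the mitochondrial share as a covariate (0.49, adjusted p = 0.015), and in the Tfe3 cross with DESeq2 (0.39, adjusted p = 0.024) and the likelihood ratio test (0.41, adjusted p = 0.045). With 1 library left out at a time the medians ranged over 0.014 to 0.10 (Flcn), -0.070 to 0.052 (Tfeb) and 0.066 to 0.10 (Tfe3). Depth limits the 5 members with under 10 counts in at least 1 library (Epg5, Atg4c, Atg9a, Atg13 and Plekhm1).

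Single values were recomputed for the 23 members given by library, not for the other members. Of those 23, the following took the opposite sign, in log2 units, under an alternative, none past the threshold in the fit reported, and the cause was not tested. With control Flcn replicates 4 and 5 left out they were Vmp1 -0.087, Atg16l1 -0.18, Tax1bp1 0.10 and Plekhm1 0.071 in the Flcn cross. With DESeq2 they were Gabarapl1 0.0061 in the Tfeb cross, Tax1bp1 -0.0015 in the Tfe3 cross. With RLE factors they were Gabarapl1 0.0074 in the Tfeb cross. With a mean of 10 counts or more they were Gabarapl1 0.0021 in the Tfeb cross. With Xist as a covariate they were Vmp1 0.011, Atg5 -0.015, Atg16l1 0.078 and Map1lc3b -0.0016 in the Tfeb cross, Tax1bp1 -0.011 in the Tfe3 cross. With the mitochondrial share as a covariate they were Becn1 -0.16, Uvrag 0.15, Wipi1 0.26, Atg9a 0.30, Map1lc3b -0.022, Gabarapl1 0.38, Gabarapl2 -0.035, Sqstm1 0.52, Nbr1 0.54, Stx17 -0.21 and Plekhm1 0.38 in the Tfeb cross, Vmp1 0.012, Atg7 0.0086, Atg16l1 0.20 and Tax1bp1 -0.034 in the Tfe3 cross. With all 35 libraries in 1 fit they were Gabarapl1 0.0068 in the Tfeb cross. With no filter they were Atg7 0.0070 in the Tfe3 cross. With set B alone they were Ulk1 -0.090, Wipi1 -0.20, Vmp1 0.40, Atg5 0.10, Atg16l1 0.35, Gabarapl2 0.18, Nbr1 -0.050, Calcoco1 -0.15, Tax1bp1 -0.047 and Plekhm1 -0.23 in the Tfe3 cross. With set C alone they were Map1lc3a -0.064, Map1lc3b -0.073, Gabarap -0.034 and Stx17 -0.18 in the Tfe3 cross. With no set term they were Rb1cc1 -0.011, Atg5 0.021, Atg7 0.10 and Stx17 -0.031 in the Tfe3 cross. The replicate numbers did not pair the libraries (correlations of same-numbered libraries -0.23 to 0.32, -0.10 to 0.15 and -0.34 to 0.27 in the 3 crosses, with 1 library best matched by its own number in each). With the replicate block 0 members were called in each cross, and opposite signs were Atg5 -0.040, Atg16l1 0.13 and Gabarapl1 0.0042 in the Tfeb cross, Ulk1 -0.0044, Atg5 0.064, Atg7 0.16, Atg16l1 0.032, Calcoco1 -0.078 and Tax1bp1 -0.0028 in the Tfe3 cross. Leaving out each library in turn, ranges that cross 0 were Atg16l1 -0.46 to 0.44, Atg5 -0.042 to 0.12, Atg9a -0.75 to 0.075, Becn1 -0.098 to 0.25, Gabarapl1 -0.12 to 0.22, Map1lc3b -0.034 to 0.085, Nbr1 -0.44 to 0.21, Sqstm1 -0.54 to 0.27, Stx17 -0.066 to 0.41, Tax1bp1 -0.084 to 0.025, Uvrag -0.18 to 0.075, Vmp1 -0.15 to 0.15 and Wipi1 -0.12 to 0.18 in the Tfeb cross, Atg5 -0.097 to 0.016, Atg7 -0.048 to 0.20, Atg9a -0.030 to 0.33, Becn1 -0.018 to 0.065, Calcoco1 -0.051 to 0.19, Plekhm1 -0.30 to 0.072 and Vmp1 -0.0091 to 0.12 in the Flcn cross, Atg7 -0.061 to 0.033, Map1lc3a -0.0044 to 0.058, Stx17 -0.034 to 0.058, Tax1bp1 -0.012 to 0.036 and Vmp1 -0.18 to 0.0053 in the Tfe3 cross.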
